A study of Homo sapiens with 4 samples.

Results

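The regions described here were the SMAR1 peaks of HCT116 p53+/+ cells that lay at the start of a protein-coding gene and overlapped no SMAR1 peak of HCT116 p53-/- cells. HCT116 cells come from a human colorectal carcinoma, and SMAR1 is the nuclear matrix protein encoded by BANP. The peaks were selected on the positions in both deposited lists. A peak was taken where its centre lay within 1 kb, on either side, of the nearest transcription start site (TSS) of any transcript in the annotation (GENCODE 44 on hg19), where the gene of that TSS was protein-coding, and where no base was shared with a p53-/- peak. The study immunoprecipitated chromatin of untreated p53+/+ and p53-/- cells with an anti-SMAR1 antibody or with normal rabbit IgG and sequenced 1 library of each kind per cell line. How the p53-/- line was made is not given in the sources used here, and the IgG libraries were not analysed here. The p53+/+ list held 5709 peaks and the p53-/- list 8217, of which 5471 and 8127 lay on chromosomes 1 to 22 and X. Of the 5471 p53+/+ peaks, 4330 (79.1%) overlapped no p53-/- peak. Of the 566 p53+/+ peaks at coding promoters, 230 (40.6%) overlapped none, and these 230 peaks, out of 13926 in both lists together, are hereafter called p53+/+-only promoter peaks. The other 336 are called shared promoter peaks, and 667 promoter peaks of the p53-/- list overlapped no p53+/+ peak. With 1 anti-SMAR1 library per cell line there was no replicate, so the shares below were compared without a test, and a peak found in 1 list alone may differ between the cell lines or between the libraries. The lists gave no read counts, so the depth behind each peak is unknown. By the alignment statistics of the study the p53-/- library was the more deeply sequenced, and the part of depth in the overlap was not tested.

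SMAR1 binds matrix-attachment regions and recruits histone deacetylase corepressor complexes to DNA. It also binds the p53 protein and takes part in p53-dependent control of the cell cycle and of apoptosis. Under the name BANP the same protein is known to bind a short palindrome with a CGCG centre, which is found at CpG-island promoters of broadly expressed genes. T(C/G) repeats, runs of the dinucleotides TC and TG, are simple repeats that the study examined in its SMAR1 peaks.

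Repeats were prominent among the highest peaks, although over all 230 the longest T(C/G) run took a median of only 19.3% of the peak. The peaks are printed whole, 5′ to 3′ on the plus strand of hg19, with the longest uninterrupted run of TC or TG units in capitals. On the plus strand such a run reads TC or TG, and a run that lies on the minus strand reads GA or CA. The following 6 peaks were shown because they cover the run types among the highest scores and the longest run of all, with PDE2A at chr11:72307495-72307528, NUMB at chr14:73834056-73834091, FRMD3 at chr9:85947278-85947316, PRMT8 at chr12:3599847-3599890, UNC13B at chr9:35228698-35228741 and WHRN at chr9:117187860-117187947.
PDE2A: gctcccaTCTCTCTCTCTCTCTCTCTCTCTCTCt
NUMB: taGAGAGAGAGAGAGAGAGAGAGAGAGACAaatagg
FRMD3: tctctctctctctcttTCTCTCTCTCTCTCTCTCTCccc
PRMT8: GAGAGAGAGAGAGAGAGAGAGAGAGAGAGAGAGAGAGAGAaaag
UNC13B: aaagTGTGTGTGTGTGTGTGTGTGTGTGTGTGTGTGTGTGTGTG
WHRN: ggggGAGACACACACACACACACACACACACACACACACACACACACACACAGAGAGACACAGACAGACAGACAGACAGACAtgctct
In PDE2A, which encodes a phosphodiesterase that hydrolyses cyclic nucleotides, the TC run took 26 of the 34 bp of the peak. In PRMT8, an arginine methyltransferase gene, and in UNC13B, whose product primes synaptic vesicles, the run took 40 of 44 bp. The NUMB peak, at a gene whose product inhibits Notch signalling, held 28 bp of TC units with 1 TG unit, read on the minus strand, which is also the strand of the gene.

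Other peaks without a run of 12 bp were shown for contrast, with GLCCI1 at chr7:8010036-8010070 and RARS1 at chr5:167913328-167913385.
GLCCI1: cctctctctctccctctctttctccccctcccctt
RARS1: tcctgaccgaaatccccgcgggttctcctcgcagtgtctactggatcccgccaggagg
The GLCCI1 peak was 35 bases of pyrimidines with no purine. The RARS1 peak, 99.5 bp upstream of a start of the gene for cytosolic arginyl-tRNA synthetase, held no repeat and lay in CpG-rich sequence.

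T(C/G) runs of at least 12 bp were present in 118 of the 230 p53+/+-only promoter peaks (51.3%, 95% Wilson interval 44.9% to 57.7%). All intervals given here cover counting error only, since peaks of 1 library are not independent samples. The share was 10.4% in shared promoter peaks (35 of 336) and 35.1% in p53-/--only promoter peaks (234 of 667). Among the 4100 other p53+/+ peaks that overlapped no p53-/- peak it was 63.4%. At the starts of 19819 coding genes, 62 bp windows, the median length of the p53+/+-only promoter peaks, held such a run in 0.469%. With 200 bp taken around each centre the p53+/+-only promoter peaks reached 52.6% and coding gene starts 1.49%. Both kinds of gene-start window were centred on the canonical start. The peaks lay a median of 323 bp from their nearest TSS, so position was not matched. The interval of the p53+/+-only promoter peaks lay below that of the other p53+/+-only peaks (61.9% to 64.9%) and above those of the shared (7.59% to 14.1%) and p53-/--only promoter peaks (31.6% to 38.8%).

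**Figure D1:**
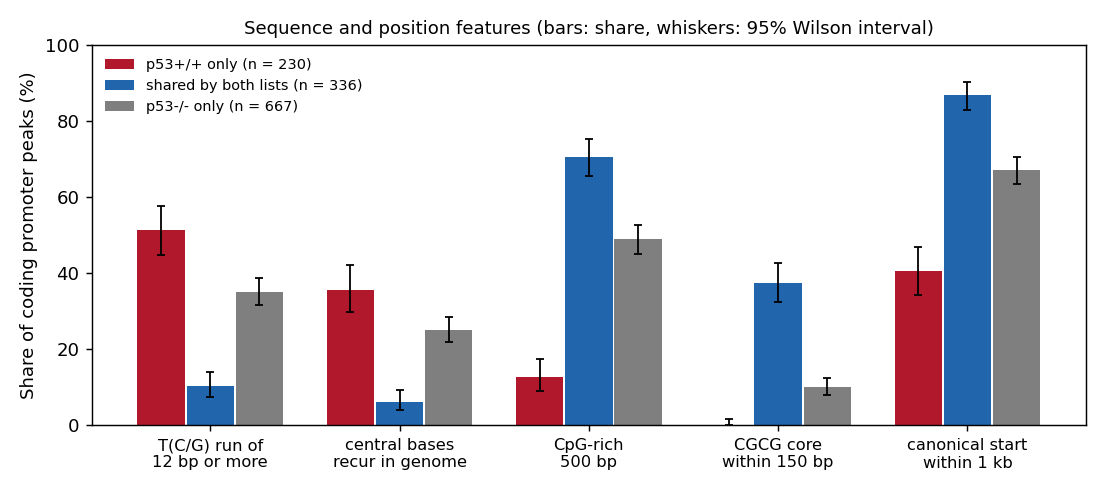
Shares of coding promoter peaks with 5 features, in percent, for the 230 p53+/+-only, 336 shared and 667 p53-/--only promoter peaks. Bars are shares and whiskers 95% Wilson intervals. The p53+/+-only peaks stand highest for T(C/G) runs (51.3%) and for central bases that recur in the genome (35.7%), and lowest for CpG-rich sequence (12.6%), the CGCG core (0) and a canonical start within 1 kb (40.4%).

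The runs were of 3 types. In 49 peaks the longest run held TG units alone, in 31 TC units alone, and in 38 both kinds. The median length of the longest run was 34 bp for TG, 20 bp for TC and 24 bp for mixed runs. TG runs lay on the strand of the gene in 34 of 49 peaks (69.4%, interval 55.5% to 80.5%), TC runs in 13 of 31 (41.9%, 26.4% to 59.2%) and mixed runs in 20 of 38 (52.6%, 37.3% to 67.5%). For TG runs the interval lay above equal numbers on both strands, and for the other types it took them in. The longest run, 78 bp of mixed units, was in a noncoding exon of WHRN, a gene of the inner ear and retina. INTS5, a subunit of the Integrator complex, followed with 72 bp of TC units and LDB2, a LIM-domain-binding cofactor, with 64 bp. PPP2R2C had 54 bp and HACD1 52 bp, and ZFP64 with 48 bp and SERPINA11 with 46 bp were also among the longest. The 5 longest runs stood in peaks with scores of 51.32 to 58.23, below the median of the whole list, whereas ZFP64 scored 92.98 and SERPINA11 91.96.

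**Figure D2:**
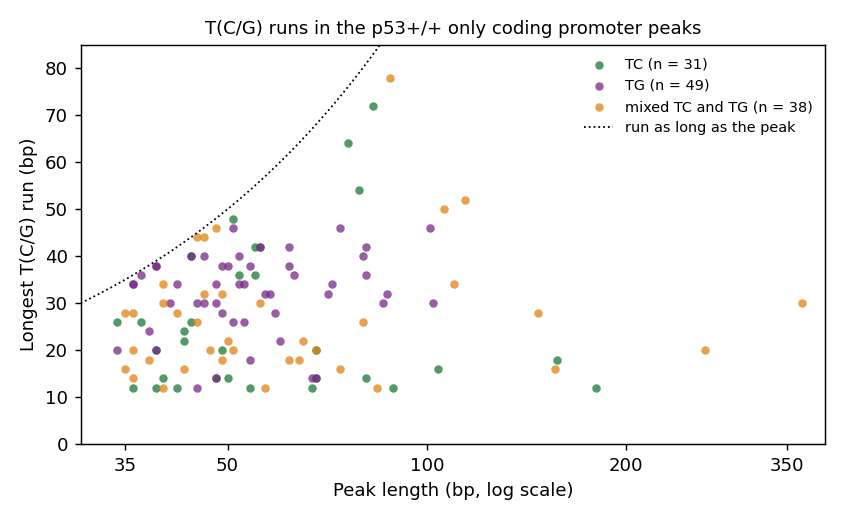
Length of the longest T(C/G) run in bp against peak length in bp (log axis) for the 118 p53+/+-only promoter peaks with a run of at least 12 bp. Each point is a peak, coloured by run type, and the dotted line marks a run as long as the peak. The run fills nearly the whole peak in some short peaks and 12 bp in others, and the longest peak, 369 bp, holds a run of 30 bp.

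The peaks with runs were short, and their central 31 bases often occurred elsewhere in the genome. Whether the rest of such a peak recurs was not examined. The median length was 51.5 bp with a run and 75 bp without, and the run took a median of 51.3% of the peak. The central 31 bases occurred elsewhere in hg19, on either strand, for 82 of the 230 peaks (35.7%). The same held for 21 of 336 shared (6.25%) and 167 of 667 p53-/--only promoter peaks. It held for 51.7% of the 4100 other p53+/+ peaks that overlapped no p53-/- peak, and for 63 of the 118 peaks with a run. Among TG runs this was so for 36 of 49, among TC runs for 15 of 31 and among mixed runs for 12 of 38. The centres of PSG8, a pregnancy-specific glycoprotein gene, and of FRYL matched 183420 places, that of UNC13B 170925 and that of PRMT8 22295. How reads with several matches were placed is not given in the sources used here. Of the 148 peaks whose central bases occurred at 1 place, 37.2% held a run. A further 32 peaks held another repeat, either at least 20 bp of pyrimidines or purines alone or a tandem repeat of a 3 to 6 bp unit. These sequence classes, and the exon class below, were defined after the values had been seen.

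The CGCG core was absent. The 8 bases CTCGCGAG, the palindromic core known for BANP, were found within 150 bp of the centre in 0 of the 230 p53+/+-only promoter peaks, which allows a share of up to 1.30%. The core was present in 126 of 336 shared promoter peaks (37.5%, interval 32.5% to 42.8%) and in 67 of 667 p53-/--only promoter peaks (10.0%, 7.99% to 12.6%). In windows of 300 bp at all coding gene starts it was present in 270 of 19819 (1.36%), and the Wilson interval of the p53+/+-only promoter peaks, 0 to 1.64%, takes in that share. As an example of a shared promoter peak, 30 bases around the core upstream of MAPK14, which encodes the p38 alpha kinase of stress signalling, are printed with the core in capitals, from chr6:35995416-35995445.
MAPK14: attgttctcttCTCGCGAGaactgctcctc
The core stood in 1 of the 4100 other p53+/+-only peaks and in 2.36% of the other shared peaks.

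CpG-rich sequence, here 500 bp with at least 55% G and C and an observed-to-expected CpG ratio of at least 0.65, surrounded 29 p53+/+-only promoter peaks (12.6%, interval 8.92% to 17.5%). The share was 70.5% for shared promoter peaks, 48.9% for p53-/--only promoter peaks and 63.0% for all coding gene starts. For the 4100 other p53+/+ peaks that overlapped no p53-/- peak it was 0.927%. The median CpG ratio was 0.308 against 0.855 in shared promoter peaks. Of the 29 CpG-rich peaks, 24 lay within 1 kb of a canonical start and 5 held a T(C/G) run. Motifs of other promoter factors were searched in the same 300 bp, on both strands. GGGCGG, the GC box of SP and KLF factors, was found in 19.6% of p53+/+-only promoter peaks, 52.1% of shared promoter peaks and 61.6% of gene starts. CCGGAAG, an ETS site, was found in 6.09%, 21.4% and 13.5% in the same order. CCAAT was found in 22.6%, 29.5% and 32.7%, and TATAAA in 9.13%, 5.36% and 8.06%. In p53-/--only promoter peaks the GC box was found in 41.5%, the ETS site in 11.5%, CCAAT in 31.9% and TATAAA in 9.90%. In the other p53+/+-only peaks the shares were 3.29%, 0.732%, 30.2% and 18.8% in the same order.

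A p53 consensus of 10 bp was present within the peak and 50 bp on each side in 13 p53+/+-only promoter peaks (5.65%, interval 3.33% to 9.43%). It was present in 5.06% of shared and 3.75% of p53-/--only promoter peaks, and in 5.02% of 300 bp windows at coding gene starts. In the 4100 other p53+/+-only peaks, which are not at coding promoters, the share was 2.41% (interval 1.99% to 2.93%). The searched length followed peak length, whose median was 62 bp for p53+/+-only, 166 bp for shared and 115 bp for p53-/--only promoter peaks. For the other p53+/+-only peaks it was 55 bp. These shares thus come from unlike lengths of sequence. The 13 peaks were at genes such as ENTPD3 with a score of 88.35 and RFC3, a subunit of the clamp loader in DNA replication, with 55.98, which were chosen as examples after their values were seen. A T(C/G) run was also present in 7 of the 13.

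The promoter assignment rested in many cases on a start other than the main start of the gene. In all, 93 of the 230 peaks (40.4%, interval 34.3% to 46.9%) lay within 1 kb of the start of the canonical transcript of their gene, against 86.9% of shared and 67.2% of p53-/--only promoter peaks. For 96 peaks the canonical start was more than 10 kb away. The nearest start belonged to a transcript annotated as protein-coding in 133 cases, to one without a defined coding sequence in 42, to a retained-intron transcript in 33 and to a transcript subject to nonsense-mediated decay in 22. By the annotation of the assigned gene at their centres, 123 peaks (53.5%) lay in introns, 33 in untranslated regions, 19 in coding sequence, 8 in noncoding exons and 47 outside the gene. The intronic share was 65.3% for peaks with a run and 41.1% for peaks without. It was 20.5% for shared promoter peaks.

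The 93 peaks at canonical starts were set beside the other 137. CpG-rich sequence surrounded 24 of the 93 (25.8%, interval 18.0% to 35.5%) and 5 of the 137 (3.65%, 1.57% to 8.26%). Even at canonical starts this stayed below the 70.5% of shared promoter peaks. A T(C/G) run was present in 42 of the 93 (45.2%, 35.4% to 55.3%) and in 76 of the 137 (55.5%, 47.1% to 63.5%), intervals that overlap. Introns held 30 of the 93 and 93 of the 137. The median score was 61.27 at canonical starts and 66.77 away from them. Peaks with both a canonical start and a run included PAPPA, whose TC run of 20 bp lay 321 bp upstream, PRMT8 with 40 bp at 500.5 bp upstream, PSG8 with 38 bp of TG units at 246 bp upstream and INTS5 with 72 bp at 520 bp upstream. A transcript of another gene, coding or not, started on the opposite strand at most 1 kb upstream of the TSS, the arrangement of a divergent promoter, for 26 of the 230 peaks (11.3%), against 31.2% of shared and 21.7% of p53-/--only promoter peaks.

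The 61 peaks outside the repeat and exon classes had a higher CpG content than the peaks with a run. Their median CpG ratio was 0.571, against 0.225 in the peaks with a run, and 16 of the 61 were CpG-rich. They included RARS1 with a score of 55.38, MRPS16 with 56.34, EEF1A1 with 55.21 and GGA1, an adaptor of Golgi trafficking, with 54.86. The class also held the highest score of all, 171.04 at PLCXD1, and the CpG-rich peak of ZNF559-ZNF177 with 111.6, and its lowest score was 50.15. It was not free of repeats, since the repeat classes asked for uninterrupted repeats. The PLCXD1 peak and that of FAM107B, with 106.71, held CA units broken by other bases, with longest runs of 6 and 10 bp.

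Distances to the TSS were spread over the whole window. The median distance was 323 bp, with quartiles of 108 and 596 bp, against 50.8 bp for shared and 141 bp for p53-/--only promoter peaks. A p53+/+-only promoter peak covered the TSS in 27 cases (11.7%) and a shared one in 219 (65.2%). The centre was upstream of the TSS in 127 cases (55.2%, interval 48.8% to 61.5%), an interval that takes in equal numbers on both sides. The 200 bp just upstream held 49 peaks (21.3%) and the 200 bp at the downstream limit 20 (8.70%). The distance limit was part of the rule, so these positions are a description. Just inside it were the peaks at CELF5 at 1000 bp, HACD1 at 999.5 bp, IL1R2 at 998.5 bp, AOPEP at 995.5 bp and WIZ at 995 bp. Just outside were peaks at ENSG00000268655 at 1004.5 bp, PDE11A at 1006 bp, PGAM1 at 1028 bp, CSF2RB at 1031.5 bp and TCF4 at 1044 bp. Scores were 53.04 to 79.88 on the inside and 53.25 to 59.5 on the outside.

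**Figure D3:**
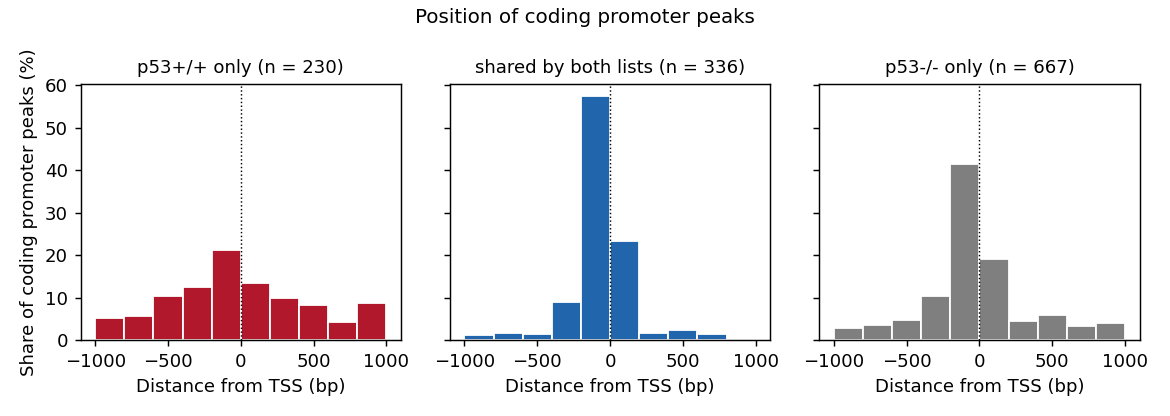
Distance of the peak centre from the nearest TSS in bp, in bins of 200 bp with negative values upstream, as a share of the promoter peaks of each group in percent. The 230 p53+/+-only peaks are spread over the window, with 21.3% in the highest bin, and the 336 shared peaks have 57.4% of their centres in the 200 bp upstream of the TSS.

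A set of peaks lay over exons, and some had both edges close to those of an exon. HSF1, the transcription factor of the heat shock response, had 4 peaks in the p53+/+ list and none in the p53-/- list. They covered exons 3, 4 and 9 and the start of exon 13 of 13, with scores of 82.87, 53.08, 105.87 and 87.25, and all 4 were p53+/+-only promoter peaks, the last through a start of the neighbouring gene DGAT1. RELA, the p65 subunit of NF-kappaB, had peaks over exon 3 with a score of 67.98 and exon 4 with 54.99 of its 11 exons, and a further p53+/+ peak in exon 11 that was not at a promoter, with none in the p53-/- list. The peaks over RELA exons 3 and 4 stopped 63 and 45 bp short of the exon edge at higher coordinates. BANP itself had 1 p53+/+-only promoter peak, over part of exon 3 of 14, with a score of 93.39. It stopped 60 bp short of that exon edge. The p53+/+ list held further BANP peaks over exons 2, 5, 7 and 14, with scores of 102.55, 254.42, 110.14 and 77.69. It also held a shared peak at the promoter with 134.47. The p53-/- list held 2 BANP peaks, the promoter peak with a score of 243.84 and one over exon 2 with 58.37. These 2 scores are given for the record and cannot be set against those of the p53+/+ list, because the score rises with depth.

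**Figure D4:**
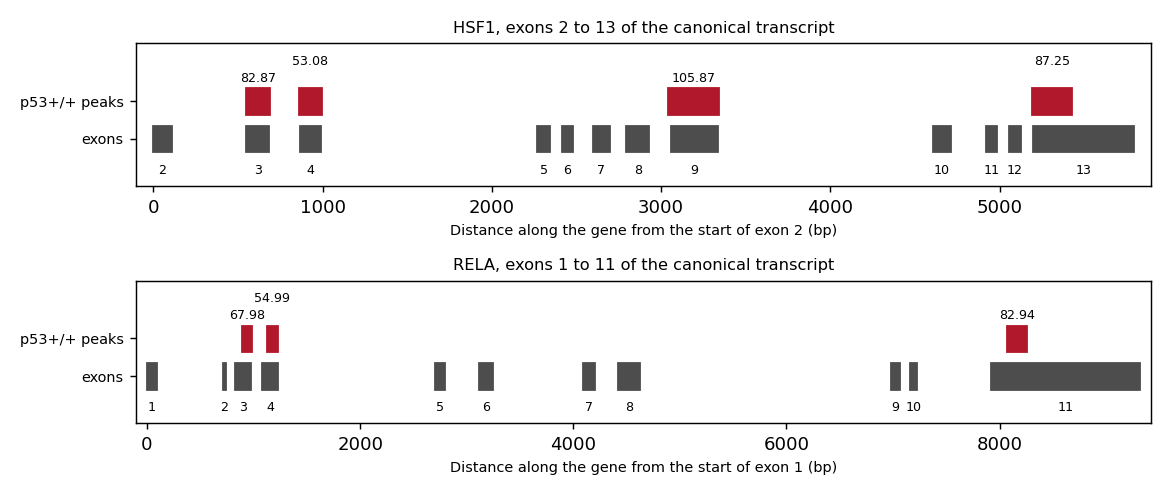
Peaks of the p53+/+ list (red, with their MACS scores) above the exons of the canonical transcripts of HSF1 and RELA (grey, numbered), against distance along the gene in bp from the start of the first exon drawn. Each of the 4 HSF1 peaks starts within 17 bp of the start of an exon, and introns between them hold no peak. Exon 1 of HSF1 is left out.

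Peaks with both edges close to those of an exon were rare in the lists as a whole, but most of them were p53+/+-only promoter peaks. Both edges lay within 10 bp of the same coding-gene exon in 11 of 5471 p53+/+ peaks (0.201%) and in 0 of 8127 p53-/- peaks (0%, which allows up to 0.0369%). By group this held for 8 of 230 p53+/+-only promoter peaks (3.48%, interval 1.77% to 6.71%) and 1 of 336 shared promoter peaks (0.298%). It also held for 1 of the 4100 other p53+/+-only peaks and 1 of the 805 other shared peaks. Several of the 8 lay in the same gene, so they are not independent. Among the p53+/+-only promoter peaks of this shape were those over exons 3 and 4 of HSF1. Another matched an exon of the read-through gene ZNF559-ZNF177 that belongs to a transcript other than the canonical one. Those among the other p53+/+ peaks were at BANP exon 7, FDPS and SMIM41. Peaks with at least 80% of their bases in an exon of a canonical coding transcript made up 2.03% of the p53+/+ list and 1.38% of the p53-/- list, so exonic position alone was present in both. The cause of the exon outlines was not tested. Without 12 exonic peaks, those of HSF1, RELA and BANP among them, 218 peaks were left and 54.1% of them held a T(C/G) run.

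Scores of the p53+/+-only promoter peaks were slightly below those of the whole p53+/+ list and well below those of shared promoter peaks. The score is −10 times the log10 of the MACS p-value, so that 50 stands for 1e-05, and it was compared only within the p53+/+ list because it rises with depth. The 230 scores went from 50.09 to 171.04 with a median of 64.4 (95% order-statistic interval 60.65 to 66.99), against a median of 67.86 in the whole p53+/+ list. A score at or above that median was reached by 95 peaks (41.3%), and 21 peaks reached 100. The median was 67.86 in the 4100 other p53+/+ peaks that overlapped no p53-/- peak and 68.83 in the 805 other shared peaks. Shared promoter peaks had a median of 92.36 and a highest score of 1616. The absence of an overlapping p53-/- peak was part of the rule, so this difference is a description. By sequence class the median was 67.86 for the 118 peaks with a run, 67.4 for the 32 with another repeat, 63.08 for the 19 exonic peaks and 56.57 for the remaining 61.

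**Figure D5:**
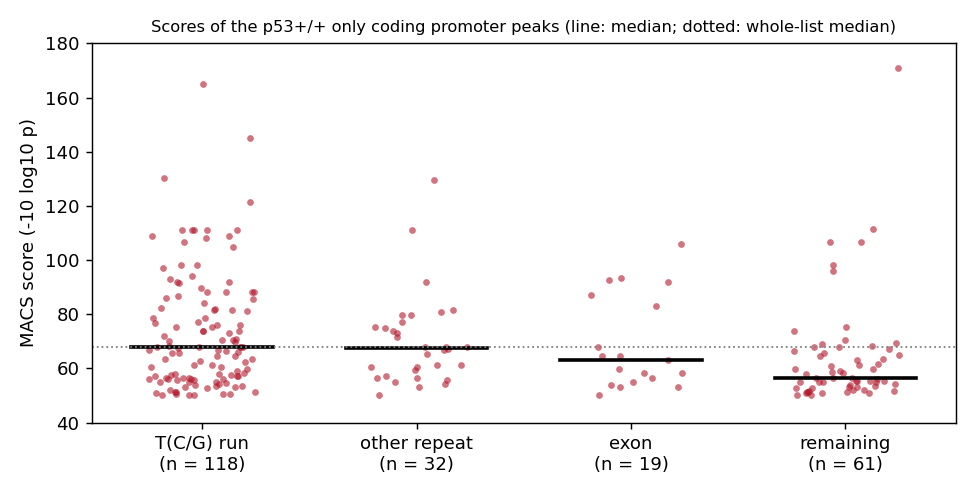
MACS score (−10 log10 p) of each of the 230 p53+/+-only promoter peaks by sequence class. Points are peaks with random horizontal offsets, black bars class medians and the dotted line the median of the whole p53+/+ list, 67.86. The 118 peaks with a T(C/G) run have a median at that line and the 61 remaining peaks one of 56.57.

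The 20 highest scores, from 171.04 to 105.87, belonged mostly to short repeats. A T(C/G) run was present in 13 of the 20, 17 were at most 50 bp long, and 8 lay within 1 kb of a canonical start. The highest was a peak of 33 bp in an intron of PLCXD1, a phospholipase C-like gene in the pseudoautosomal region of chromosome X, whose sequence also stands on chromosome Y. PDE2A followed with 165.11, NUMB with 145.09 and FRMD3 with 130.47. FN1, the fibronectin gene, had 121.35 with a mixed run of 30 bp. ZNF559-ZNF177 had 111.6. Exactly 110.92 was given to 6 peaks, at GLCCI1, the potassium channel gene KCNJ15, PAPPA, which encodes a protease of insulin-like growth factor binding proteins, PRMT8, UNC13B and the zinc finger gene ZNF780A. CSF2RB, the shared receptor chain for IL-3, IL-5 and GM-CSF, had 109.04, the peroxisomal gene PEX11G 108.78 and PSG8 108.16. FAM107B, FRYL and the cancer-testis antigen gene MAGEA12 each had 106.71, and HSF1 had 105.87. Scores were shared by 92 of the 230 peaks, which took 173 distinct values, so ranks among them were loose.

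The 230 peaks were assigned to 218 of 20098 coding genes (1.08%), and shared promoter peaks to 301 (1.5%). More than 1 peak was found at 8 genes, among which HSF1 had 3 and CELF5, DMBT1, IL1R2, NCCRP1, RELA and TDRD9 had 2 each. DMBT1, a mucosal scavenger receptor gene, had its pair in 1 intron, with runs of 14 and 18 bp and scores of 91.44 and 59.12. IL1R2, a decoy receptor for interleukin 1, had scores of 76.85 and 54.37, both in peaks with mixed runs. Chromosome 19 held 23 peaks, chromosome 17 18 and chromosomes 1 and 2 16 each, and per 1000 coding genes chromosome 14 had the most, 21.1.

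Other peaks of the p53-/- list were present at some of the same genes. A p53-/- promoter peak at any start of the same gene was found for 17 of the 218 genes (7.80%), where 4.48% of all coding genes had one, and 6 of the 17 also had a shared peak. A p53-/- peak somewhere between gene start and gene end was found for 51 genes (23.4%), against 14.7% of all coding genes. Gene length was not taken into account in these shares. The median distance to the nearest p53-/- peak was 106594 bp, and 13 peaks had one within 1 kb, 9 of them within 200 bp. Just inside the overlap rule were GGA1 with a gap of 19 bp, C3 with 34 bp, GCGR with 43 bp, ZNF559-ZNF177 with 46 bp and IL1R2 with 47 bp. The smallest overlaps among shared promoter peaks were 33 bp at SYT3 and 35 bp at ATXN2. Those peaks were so short that the overlap took all or most of them, so neither was a borderline case.

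Gene groups were set beside all coding genes, of which 1.08% had a p53+/+-only and 1.5% a shared promoter peak. Of 596 C2H2 zinc finger genes 6 had a p53+/+-only promoter peak (1.01%), and those with the highest scores were ZNF780A with 110.92, ZFP64 with 92.98, ZNF462 with 75.12 and ZNF83 with 73.2. Each of these 4 peaks held a T(C/G) run. Of 337 solute carrier genes 5 had one (1.48%), with SLC26A4, the pendrin anion exchanger, at 69.47, SLC24A4, a sodium, potassium and calcium exchanger, at 66.78, SLC38A2, a neutral amino acid transporter, at 59.81 and SLC2A11, a sugar transporter, at 54.86. Of 86 cytosolic ribosomal protein genes 1 had one (1.16%), RPL22L1 with 51.04, and 13 had a shared promoter peak (15.1%). Of 160 splicing and RNA-binding factor genes 2 had one (1.25%), HNRNPH3 with 67.86 and RBM25 with 54.99, and 8 had a shared one (5%). In both groups the share with a p53+/+-only peak was thus near that of all coding genes. Mitochondrial ribosomal protein genes gave MRPS16 with 56.34 and MRPS36 with 55.78, of 78 genes. Aminoacyl-tRNA synthetases gave the mitochondrial seryl enzyme SARS2 with 57.25 and RARS1 with 55.38, of 32 genes. Translation factors gave the elongation factor EEF1A1 with 55.21 of 68 genes, respiratory chain genes the complex I subunit NDUFB8 with 57.86 of 104, and small GTPases RAB17 with 63.5 of 72. None was found at 73 histone, 399 olfactory receptor, 48 proteasome, 75 cyclin, CDK and CDC, 43 MAP kinase, 149 keratin, 59 protocadherin or 76 DNA repair genes, and in lists of this size a share of 1.08% gives few peaks or none.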

How the data were processed

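Peaks of SMAR1 were deposited for 1 anti-SMAR1 library of HCT116 p53+/+ and 1 of HCT116 p53-/- cells. Per the labels and the methods, the authors trimmed reads with cutadapt (1.2.1), aligned them to hg19 with Bowtie2 (2.2.1), converted the alignments with SAMtools (0.1.19 in the submitters' processing notes, another release in the methods), called peaks with MACS (1.4.2) on each library and filtered them on fold enrichment. The deposited score of a peak is the MACS score, −10 log10 of the p-value, which is not scaled for depth. Whether the IgG libraries served as control is not given in the sources used here.

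Positions were compared with GRCh37 and GENCODE 44 lifted to it, after conversion to 1-based coordinates. Components were read at the peak centre. Runs and motifs were searched on both strands, and sequence was read from the assembly. Motif windows were 300 bp, and each coding gene counted once at its start. Shares carry 95% Wilson intervals, and a count of 0 an upper limit of 3 counts. No test was run across peaks. The regions and gene lists were chosen with earlier results of these data known. Named regions were the 20 with the highest score, those next to the 1 kb limit, the 8 longest runs, any with the CGCG core (none), up to 4 per gene list and genes with several peaks. Regions next to the overlap limit, the p53 consensus examples, the shared peak printed as a sequence and the exon genes were named after values were seen. Some items the rule names are not reported here. Overlap, TSS and repeat functions were tested on simulated data. Scripts ran in Python 3.11.15 with matplotlib 3.10.9, numba 0.67.0, numpy 2.4.6, pandas 2.3.3, pysam 0.24.0 and scipy 1.17.1.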

Additional observations from a re-analysis of the deposited data

How the results depend on the processing

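Of 65 alternative values under 15 settings, 53 kept to the reported value within its interval or within 1.5 times the count, and 12 moved. The CGCG core stayed at 0 with the 2 kb window and with the other settings that changed the TSS rule, and settings that only removed peaks or narrowed the search could not give another value. Peaks scoring at or above the list median numbered 95, with a run in 63.2% and a median score of 81.84. A 2 kb window gave 367 peaks and 1 start per gene gave 96. Measured from the nearest edge, 48.5% were upstream, because a peak that covers the TSS then counts as neither side. A p53-/- promoter peak at the same gene fell from 7.83% of peaks to 4.07% with no p53-/- peak allowed within 200 bp and to 2.76% within 1 kb. Runs of at least 6 bp were in 72.2% and of at least 20 bp in 37.8%. Leaving out peaks whose central bases recur, an alternative chosen after seeing the data, left 148 peaks with a run in 37.2%, and leaving out 12 exonic peaks, those of HSF1, RELA and BANP among them, also chosen then, moved none of the 6 values. Except where a definition itself changed the count, the cause was not tested. No paired analysis was possible because each cell line had 1 anti-SMAR1 library. Without read counts, weak peaks near the score floor cannot be weighed by depth.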
